A study of Mus musculus with 550 samples.

Results

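Vax2 and Vax2os, a gene pair read from opposite strands of 1 stretch of mouse chromosome 6, were followed through single cells of embryoid bodies (EBs, floating clusters formed by embryonic stem cells as they differentiate). They are 2 of the 55228 gene names in the count table and were chosen because both stood among the lowest genes of Dnmt3a knockout cells against wild-type cells at day 9. The EBs came from E14 mouse embryonic stem cells of strain 129/Ola that were wild type (WT), Dnmt3a -/- (3AKO) or Dnmt3b -/- (3BKO), and cells were taken at day 3 and day 9 of differentiation. Of 550 single cells, 486 were kept, those with at least 50000 assigned reads, at least 2000 detected genes and at most 50% mitochondrial reads. Kept cells numbered 79 for WT, 83 for label 3AKO and 80 for label 3BKO at day 3, and 89, 88 and 67 in the same order at day 9. The study collected EBs of each clone of each genotype and pooled EBs of different wells, and the labels tell no clones or cultures apart, so each genotype and day was 1 sample with no replicate and no test was made.

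Each plate was split into 2 library batches, which are given separately below as 12 libraries. At day 3, WT filled plate 209, while plates 210 and 211 each carried both mutant labels. On plate 211 batch 1 was labelled 3AKO and batch 2 was labelled 3BKO, and on plate 210 it was the other way round. Dnmt3a, the gene that 3AKO cells lack, had 25.8 CPM (reads of the gene scaled to a library total of 1e6, over the summed cells) in batch 1 of label 3AKO but 335 CPM in batch 2 of that label, and 12.8 CPM in batch 2 of label 3BKO. The batch 2 mutant labels of day 3 are therefore in doubt, and day 3 is described by plate as well as by label. At day 9 each genotype filled 1 plate, so plate and genotype cannot be told apart. Summed reads per genotype and day ran from 19713905 to 34821361, and a kept cell had 54720 to 1450202 reads. Of 6 epiblast markers, 6 had reads in each of the 6 samples, with summed levels of 1771 to 3611 CPM. The highest sum, in 3BKO day 9, was mostly Zfp42 (2269 CPM, beside 963 in WT day 9) and Nanog (1004 beside 561). Pou5f1 had 110 beside 95.8 CPM. Lefty1 (209 beside 444), Fgf5 (2.11 beside 61.1) and Dnmt3b (16.4 beside 167), the gene that 3BKO cells lack, were lower there. The 8 ectoderm markers summed to 274 to 481 CPM, with Sox1, Nes and Zic1 at 0 in 3BKO day 9, and the 8 meso-endoderm markers to 8.995 to 75.7 CPM, where 1 to 3 markers were at 0 in each sample: Mixl1 in WT at both days, Foxa2 and Kdr in label 3AKO and T in label 3BKO at day 3, Kdr in 3AKO day 9, and T, Mixl1 and Foxa2 in 3BKO day 9.

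Vax2 encodes a homeodomain transcription factor of the ventral optic vesicle and ventral retina, where it works with its paralogue Vax1 in setting up the ventral eye and the optic nerve. Vax2os is a noncoding transcript from the opposite strand, described in the retina. DNMT3A and DNMT3B are the de novo DNA methyltransferases, which place methyl groups on CpG dinucleotides as embryonic cells differentiate.

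In the GENCODE vM21 annotation of GRCm38, Vax2 (ENSMUSG00000034777.2) lies at chr6:83711264-83738313 on the plus strand, with 1 transcript of 3 exons that hold 1242 bases, 876 of them coding. Vax2os (ENSMUSG00000085794.5, class antisense) lies at chr6:83692806-83712201 on the minus strand, with 4 transcripts and 5406 exon bases. The gene spans have 938 bases in common, but the exons of Vax2 and Vax2os share 0 bases in this annotation. The first exon of the longest antisense transcript lies inside the first intron of Vax2, and another antisense transcript starts 332 bases before the Vax2 start and runs away from it. Of the Vax2os exon bases, 847 (15.7%) are shared with the small RNA models Gm27631, Gm27772 and Gm27893, each of which had 0 reads over all kept cells, and 4559 belong to Vax2os alone. The library kit keeps no strand, so a read was placed by position, and a Vax2 precursor read across the first antisense exon could not be told from a Vax2os read.

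**Figure D1:**
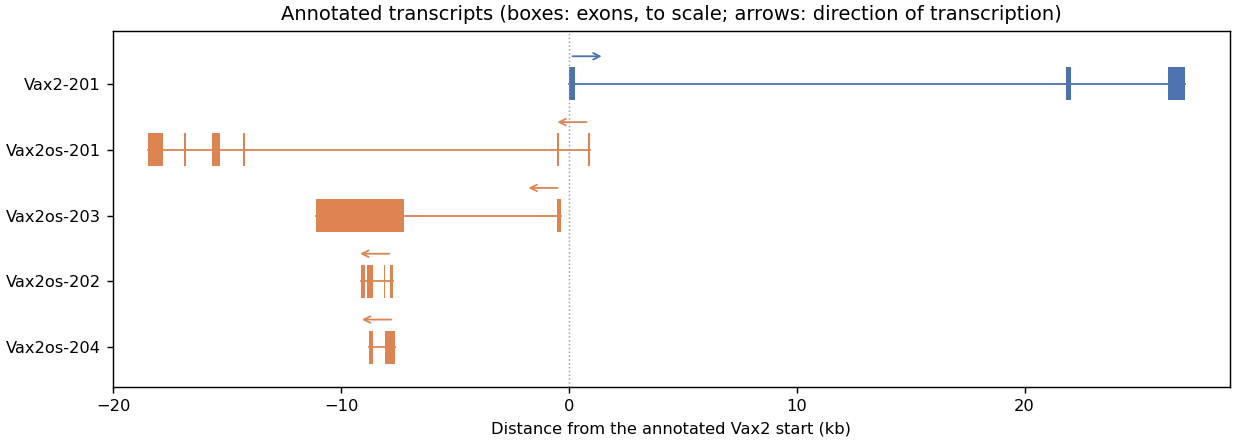
Annotated exons (boxes, to scale) of the Vax2 transcript and the 4 Vax2os transcripts against distance from the Vax2 start in kb, with arrows for the direction of transcription. The antisense exons lie before the Vax2 start, except for 1 inside the first Vax2 intron.

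The start regions of Vax2os are shown because they are the sequence between and beside the opposed starts, in cell lines that lack 1 of the enzymes that methylate CpGs. RefSeq (GRCm38.p6) gives 2 start windows for Vax2os, each 300 bases on the minus strand, and none of Vax2 was used here. The intronic window, chr6:83712152-83712451, has its start site 937 bases inside Vax2. The upstream window, chr6:83710776-83711075, has its start site 439 bases before the Vax2 start. CpG dinucleotides are in capitals.
Vax2os intronic start: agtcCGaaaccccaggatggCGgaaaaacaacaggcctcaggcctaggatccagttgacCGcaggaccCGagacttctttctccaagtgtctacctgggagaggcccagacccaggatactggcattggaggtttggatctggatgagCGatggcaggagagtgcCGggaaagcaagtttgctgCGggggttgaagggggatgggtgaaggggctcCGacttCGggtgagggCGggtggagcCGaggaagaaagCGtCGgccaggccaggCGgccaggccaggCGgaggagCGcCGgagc
Vax2os upstream start: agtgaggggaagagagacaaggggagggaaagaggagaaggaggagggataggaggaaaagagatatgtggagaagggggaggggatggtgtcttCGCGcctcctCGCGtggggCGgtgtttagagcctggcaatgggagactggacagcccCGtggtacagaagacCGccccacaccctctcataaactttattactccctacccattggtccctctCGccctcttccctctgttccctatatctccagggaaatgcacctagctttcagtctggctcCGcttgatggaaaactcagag
The letters CG, which read the same on both strands, occurred 17 times in the intronic window and 9 times in the upstream window, against a median of 7 in 32851 promoter windows of this length. At least 17 were held by 31.4% of all windows and at least 9 by 45.8%. The GC content was 63% and 55.7%, against a median of 52.7%. Methylation of these bases was not analysed here.

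In WT cells both genes were present at day 3 and day 9. Vax2 had 41.7 CPM in batch 1 and 18.4 CPM in batch 2 at day 3, and 47.9 and 19.9 CPM at day 9. Vax2os had 29.2 and 15.9 CPM at day 3, and 64.4 and 27.9 CPM at day 9. For both genes and on both days batch 1 was the higher library. Pooled over batches, Vax2 rested on 625 reads at day 3 and 1333 at day 9, with 31.7 CPM (exact 95% Poisson interval 29.3 to 34.3) and 38.3 CPM (36.3 to 40.4). Pooled Vax2os had 23.5 CPM (21.4 to 25.8, 464 reads) and 51.9 CPM (49.5 to 54.3, 1806 reads). Like the binomial intervals below, these reflect counting error alone, as amplified reads carry no molecular identifier and are not independent. On the log2(CPM + 1) scale the day 9 to day 3 difference in WT was 0.26 for Vax2 (0.20 and 0.11 in batches 1 and 2) and 1.11 for Vax2os (1.11 and 0.77). The level of the antisense gene was thus 2.20-fold higher at day 9 over both batches, and that of Vax2 1.21-fold.

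Per kilobase of exon, the coding gene was the higher of the pair in every WT library. Counting only exon bases of its own for Vax2os, WT day 9 cells had 30.8 CPM per kb of Vax2 and 11.4 of Vax2os, and WT day 3 cells 25.5 and 5.16. In 3BKO day 9 cells the levels were 28.6 and 15.3 CPM per kb. The per-kb levels assume that every annotated exon is used, which these counts do not show.

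At day 9 both genes were nearly missing from 3AKO cells. Vax2 had 3.37 CPM (2.47 to 4.48, 47 reads) in batch 1 and 0 reads in the 27 cells of batch 2. Vax2os had 7.24 CPM (5.90 to 8.79, 101 reads) in batch 1 and likewise 0 reads in batch 2. No 3AKO library reached the lowest WT library for either gene. Pooled, Vax2 was at 1.97 CPM in 3AKO and 38.3 CPM in WT, a log2 ratio of -3.73 (-3.48 in batch 1, -4.39 in batch 2), and Vax2os at 4.23 and 51.9 CPM, a log2 ratio of -3.34 (-2.99 and -4.86). In batch 2, with 3 reads (0.303 CPM) taken as the limit of a count of 0, Vax2 was at least 65.7-fold lower and Vax2os at least 92.2-fold lower than the measured WT level. These bounds leave out the error of the WT level, and the exact Poisson interval of the 0 count reaches 0.372 CPM, which would make them smaller. A gene was called lower here if its log2 ratio was -1 or below in both batches and it had reads in 20% or more of the cells of 3AKO or of WT, again in both batches. Both members met this in 3AKO against WT, where 1.59% of 9201 genes did (1.07% were called higher by the same limits), and since this contrast chose them nothing is read from it. Vax2 passed the detection limit narrowly, with reads in 6 of 29 WT cells (20.7%) of batch 2.

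In 3BKO day 9 cells both genes stayed near or above the WT level. Vax2 had 48.9 CPM (45.3 to 52.7) in batch 1 and 24.1 CPM (21.7 to 26.6) in batch 2, next to 47.9 and 19.9 CPM in WT. Vax2os had 86.98 CPM (82.2 to 91.999) and 54.5 CPM (50.9 to 58.2), next to 64.4 and 27.9 CPM in WT. The log2 ratio to WT was 0.03 and 0.26 for Vax2 and 0.43 and 0.94 for Vax2os in batches 1 and 2, and neither gene was called in either direction, where 4.98% of 9235 genes were called lower and 2.86% higher. Over both batches the Vax2 ratio was -0.10, below both batch values, as batch 2 held 53.7% of the 3BKO reads and 34.3% of the WT reads. Both mutants were set against the same WT cells. Directly between the mutants, 3BKO exceeded 3AKO by 3.62 log2 units for Vax2 (3.51 and 4.65 by batch) and 3.75 for Vax2os (3.42 and 5.79).

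**Figure D2:**
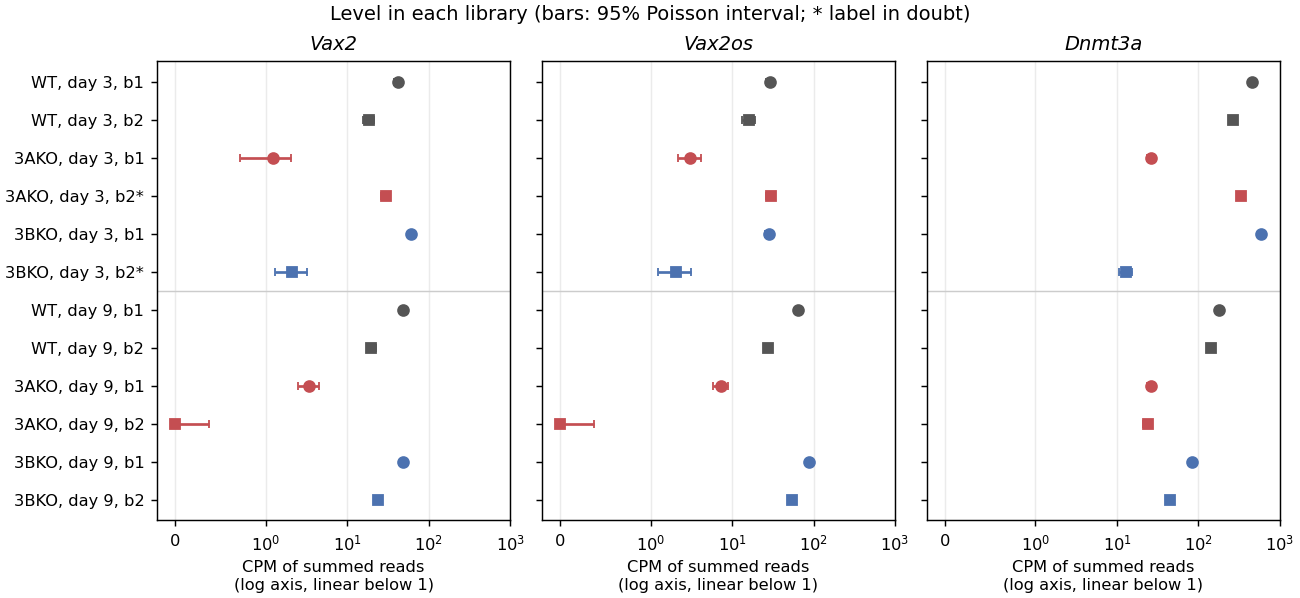
CPM of summed reads of Vax2, Vax2os and Dnmt3a in the 12 libraries (log axis, linear below 1), with circles for batch 1, squares for batch 2 (b1 and b2 in the row names) and exact 95% Poisson intervals as bars. Vax2 and Vax2os lie below 8 CPM in the same 4 libraries that have Dnmt3a below 27 CPM, and above 15 CPM in the other 8.

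The contrast that chose the genes was at day 9, but earlier results of these data were known by then. At day 3 the pair was low on 1 plate of 3. On plate 211, Vax2 had 1.25 CPM (0.713 to 2.03, 16 reads) in the batch 1 library labelled 3AKO and 2.13 CPM (1.32 to 3.25, 21 reads) in the batch 2 library labelled 3BKO. Vax2os had 3.04 CPM (2.16 to 4.16) and 2.03 CPM (1.24 to 3.13) in the same libraries. On plate 210, Vax2 had 60.2 CPM (55.9 to 64.8) in the batch 1 library labelled 3BKO and 29.6 CPM (25.98 to 33.6) in the batch 2 library labelled 3AKO, and Vax2os 28.2 CPM (25.3 to 31.4) and 29.9 CPM (26.2 to 33.9). Plate 211 thus lay below plates 209 and 210 in both batches, with no overlap.

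Grouped by plate, a choice made after seeing the data, plate 211 stood to the WT plate 209 at a log2 ratio of -3.64 for Vax2 (-4.25 and -2.63 by batch) and -2.77 for Vax2os (-2.90 and -2.48). Both members were called lower, as were 1.23% of 10408 genes, with 1.8% called higher. Plate 210 stood to plate 209 at 0.58 for Vax2 (0.52 and 0.66) and 0.28 for Vax2os (-0.05 and 0.86), and neither was called, where 1.15% of 10290 genes were called higher and 0.583% lower. Grouped by label instead, the 2 batches went opposite ways. Label 3AKO against WT gave a Vax2 ratio of -4.25 in batch 1 and 0.66 in batch 2, and label 3BKO gave 0.52 and -2.63. For Vax2os the same ratios were -2.90 and 0.86 for label 3AKO and -0.05 and -2.48 for label 3BKO. A mean over a mutant label at day 3 therefore describes neither of its libraries. The batch 1 library labelled 3AKO, whose label is not in doubt, was low in both genes.

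Ordered by pooled level, Vax2 ran from WT day 9 (38.3 CPM) through 3BKO day 9 (35.6), label 3BKO day 3 (34.1) and WT day 3 (31.7) to label 3AKO day 3 (12.2) and 3AKO day 9 (1.97). The counting intervals of neighbours overlapped among the first 4. Vax2os ran from 3BKO day 9 (69.5 CPM) through WT day 9 (51.9), WT day 3 (23.5), label 3BKO day 3 (16.4) and label 3AKO day 3 (13.4) to 3AKO day 9 (4.23), and only the intervals of the 2 mutant labels at day 3 overlapped. The spread between batches was wider than the counting intervals: between each pair of neighbours in either order, the ranges of the 2 batches overlapped.

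The low libraries were also those with the least Dnmt3a. Dnmt3a had 25.8 CPM in batch 1 of label 3AKO and 12.8 CPM in batch 2 of label 3BKO at day 3, and 26.1 and 23.9 CPM in 3AKO at day 9. In the remaining libraries it ran from 44.8 CPM in batch 2 of 3BKO day 9 to 587 CPM in batch 1 of label 3BKO day 3. The batch 2 library of 3BKO day 9 had 44.8 CPM of Dnmt3a, 24.1 of Vax2 and 54.5 of Vax2os. Dnmt3b followed another order, with 15.9 and 16.8 CPM in the batches of 3BKO day 9 and 193 and 336 CPM in those of 3AKO day 9.

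Vax2 reads came from less than 50% of the cells of each genotype and day, and Vax2os reads from up to 58.2%. A Vax2 read was found in 36 of 79 WT cells at day 3 (45.6%) and 28 of 89 at day 9 (31.5%), and a Vax2os read in 42 (53.2%) and 39 (43.8%). In 3BKO day 9 the counts were 21 of 67 cells (31.3%) for Vax2 and 39 (58.2%) for Vax2os. In 3AKO day 9, 4 of 88 cells (4.55%) had a Vax2 read and 8 (9.09%) a Vax2os read, and these lay in batch 1. The 0 of 27 cells in batch 2 allow a share of up to 11.1% if 3 cells are taken as the limit, and the exact binomial interval reaches 12.8%. On plate 211 a Vax2 read was found in 7 of 84 cells (8.33%) and a Vax2os read in 11 (13.1%), against 34 and 42 of 79 cells on plate 210 (43.04% and 53.2%).

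With every cell thinned to 50000 reads, so that depth was equal, the shares for Vax2 were 28.1% in WT day 9 (exact binomial interval 19.1 to 38.6), 31.3% in 3BKO (20.6 to 43.8) and 3.41% in 3AKO (0.709 to 9.64). For Vax2os they were 38.2% (28.1 to 49.1), 53.7% (41.1 to 66.002) and 7.95% (3.26 to 15.7). The intervals cover the sampling of cells within 1 sample each and are no comparison of genotypes. At day 3 the thinned Vax2 shares were 40.5% on plate 209 (29.6 to 52.1), 36.7% on plate 210 (26.1 to 48.3) and 2.38% on plate 211 (0.290 to 8.34), and those of Vax2os 43.04% (31.9 to 54.7), 46.8% (35.5 to 58.4) and 5.95% (1.96 to 13.3). Plate 211 had the lowest share of both genes at equal depth too.

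Among cells with a read the level varied widely. In WT day 9, cells with Vax2 had 1 to 194 reads with a median of 36, or a median of 135 CPM and a highest of 561 CPM. In 3BKO day 9 they had 4 to 158 reads with a median of 41, or 80.3 CPM at the median and 310 CPM at most. The 4 cells of 3AKO day 9 had 4 to 25 reads, with a median of 39.3 CPM and a highest of 107 CPM. For Vax2os the positive cells of WT, 3BKO and 3AKO at day 9 had medians of 118, 121 and 66.5 CPM and highest values of 599, 759 and 104 CPM. The few 3AKO cells with reads thus lay within the range of the other genotypes, with lower medians. Positive cells were fewer and their median level was lower, the second over only 4 and 8 cells.

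Some sums rested on 1 cell. In batch 2 of WT day 9, 1 cell held 126 of 238 Vax2 reads (52.9%). In 3AKO day 9, 1 cell held 53.2% of the Vax2 reads, and on plate 211 another held 43.2%. Without the cell of most reads in each group, the Vax2 ratio of 3AKO to WT at day 9 was -4.14 and the Vax2os ratio -3.46. For the pooled WT and 3BKO samples of day 9, no cell held over 14.7% of the reads of either gene.

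**Figure D3:**
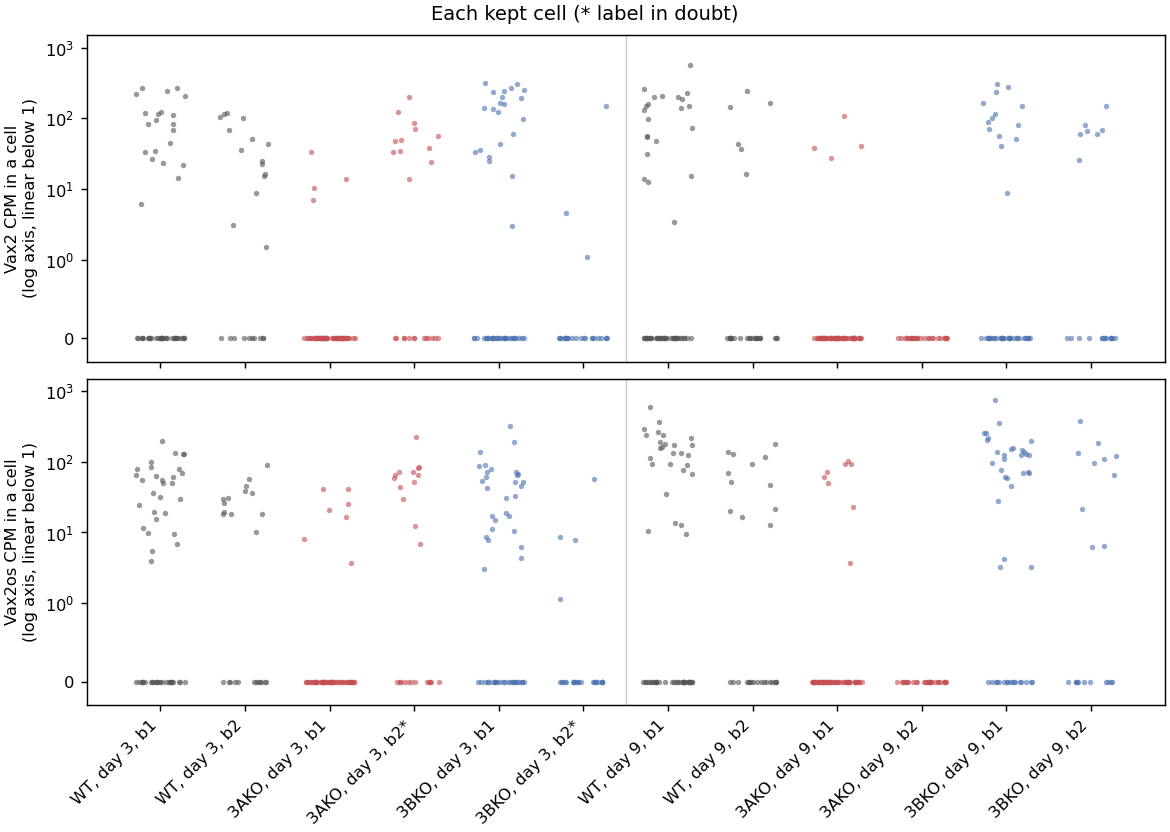
Vax2 CPM (top) and Vax2os CPM (bottom) in each of the 486 kept cells by library, on a log axis that is linear below 1, with b1 and b2 for the batches and an asterisk where the label is in doubt. Most cells lie at 0 for Vax2 in every library apart from batch 2 of WT day 3, and batch 2 of 3AKO day 9 has no cell above 0 for either gene.

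Sense and antisense reads tended to come from the same cells. In WT day 9 cells thinned to 50000 reads, 17 of the 25 cells with a Vax2 read also had a Vax2os read (68%, exact binomial interval 46.5 to 85.1), against 17 of the 64 without one (26.6%, 16.3 to 39.1). In WT day 3 cells the shares were 71.9% (53.3 to 86.3) and 23.4% (12.3 to 38.03). In 3BKO day 9 cells they were 80.95% (58.1 to 94.6) and 41.3% (26.998 to 56.8). At this depth the 2 intervals did not overlap in these 3 samples. They did overlap in 3BKO day 9 without thinning (58.1 to 94.6 and 32.9 to 63.1) and when 2 thinned reads were asked for (48.8 to 90.9 and 22.2 to 50.5). Within single thinned batches the share was higher in cells with Vax2 in each of the 6 libraries, but the intervals overlapped in all of them apart from batch 1 of WT day 3. In 3AKO day 9, 3 cells had both genes, 0 had Vax2 alone and 4 had Vax2os alone. Over all 486 cells, 82 had both, 30 Vax2 alone, 71 Vax2os alone and 303 neither.

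The pairing was loose in level. Without thinning, Spearman's rho between Vax2 and Vax2os CPM was 0.51 over the 89 WT day 9 cells (0.44 in batch 1, 0.69 in batch 2), 0.63 over the 79 WT day 3 cells and 0.40 over the 67 3BKO day 9 cells. These cells share library, day and, within each batch, sequencing. Over the 22 WT day 9 cells with reads of both genes rho was -0.05, over the 30 such WT day 3 cells 0.37 and over the 17 such 3BKO day 9 cells -0.07. At day 9 an association was thus seen in presence. None was seen in level, but 22 and 17 cells are too few to settle whether there is one. In a single WT day 9 cell with both, Vax2os made up from 11.5% to 96.7% of their joint reads, with a median of 44.8%.

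In WT cells the antisense part of the joint reads was larger at day 9. Of all Vax2 and Vax2os reads, Vax2os held 42.6% in WT day 3 (39.6 to 45.6) and 57.5% in WT day 9 (55.8 to 59.3). In batch 1 the share was 41.2% at day 3 and 57.3% at day 9, and in batch 2 46.4% and 58.4%. In 3BKO day 9 it was 66.2% (64.5 to 67.8), and in 3AKO day 9, over 148 reads, 68.2% (60.1 to 75.6). The mutant libraries of day 3 ranged widely, with 70.9% (57.1 to 82.4, over 55 reads) in batch 1 of label 3AKO and 50.2% in its batch 2, and 31.9% in batch 1 of label 3BKO and 48.8% in its batch 2. The share in batch 1 of 3AKO was thus not larger at day 9 than at day 3.

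**Figure D4:**
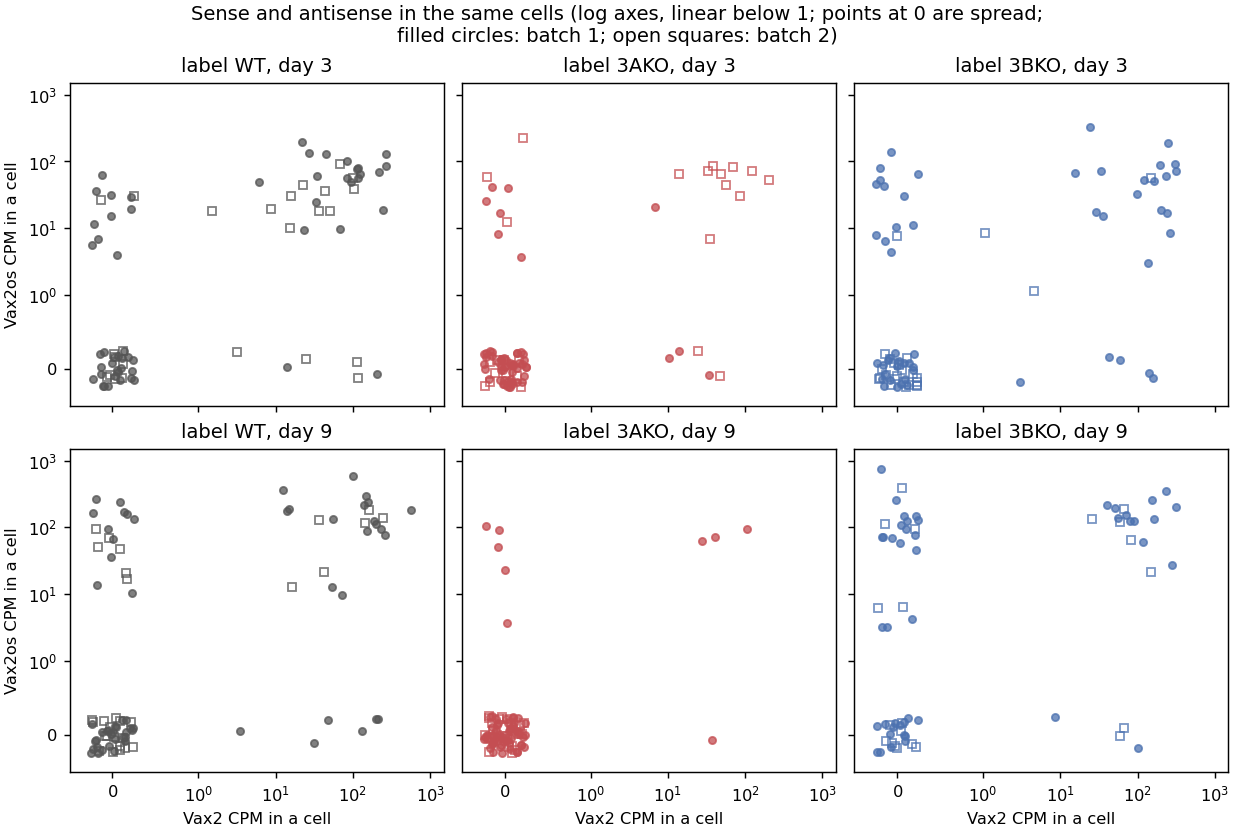
Vax2os CPM against Vax2 CPM in each kept cell, by label and day, on log axes that are linear below 1, with filled circles for batch 1, open squares for batch 2 and points at 0 spread for visibility. In WT day 9, 22 cells lie off both axes, 6 have Vax2 alone and 17 Vax2os alone, while 3AKO day 9 has 3 cells off both axes.

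Other genes of the eye and ventral forebrain were mostly at or near 0. Of 30 such genes, 4 were detected in enough cells of 3AKO or WT at day 9, and 0 were called in either direction. Over all genes 1.59% were called lower and 1.07% higher. The median log2 ratio of the 4 was -0.23 beside -0.10 over all genes. Vax1, the paralogue of Vax2, had 15 reads over all kept cells, and the ventral signal Shh, Nkx2-1, Tbx5 and the retinoic acid synthase Aldh1a1 had 0. Otx2, a head and eye field factor, had 133 CPM in WT day 9 cells, 120 in those of 3AKO and 231 in those of 3BKO. Pax6 had 25.1, 16.9 and 6.47 CPM, and Bmp4, a dorsal eye signal, 34.3, 45.3 and 29.4 CPM. Six6, a retinal progenitor factor detected in too few cells for a call, had 9.71 CPM in WT against 33.6 in 3AKO and 0 in 3BKO.

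Against 3BKO, 1 of 4 detected eye and forebrain genes was called, Ephb3, a receptor of ephrins, at 4.48 CPM in WT and 14.5 CPM in 3BKO. On plate 211 against plate 209 it was 1 of 6, Bmp4, lower by a log2 ratio of -1.52, and on plate 210 against plate 209 1 of 7, Efnb2, an ephrin ligand, higher at 1.48. The medians were 0.52, -0.04 and 0.56, beside -0.08, 0.00 and 0.04 over all genes. Of all genes, 4.98% were called lower and 2.86% higher in 3BKO. The shares were 1.23% and 1.8% on plate 211, and 0.583% and 1.15% on plate 210. Single calls in lists this short are not read as results about the lists.

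Of 18 genes of the retinoic acid and Hedgehog pathways, which pattern the ventral eye, 9 were detected in 3AKO or WT at day 9. Crabp1, a retinoic acid binding protein, was called higher at 27.9 CPM in WT and 108 in 3AKO, 0 were called lower, and the median was -0.05. In 3BKO against WT, Crabp2 was called lower at 18.9 and 3.93 CPM among 8 detected genes, with a median of -0.96. On plate 211 against plate 209, 0 of 10 were called, with a median of 0.16, and on plate 210 Dhrs3, which reduces retinal, was called higher at 1.36, with a median of 0.31. Of the 8 genes of the DNA methylation machinery 7 were detected in 3AKO or WT at day 9, of which Dnmt3a itself was called lower and Dnmt3l, a cofactor of both enzymes, higher at 47.1 CPM in WT and 128 in 3AKO. In 3BKO against WT, Dnmt3a and Dnmt3b were called lower and Dnmt3l higher, at 229 CPM. Beside these 2 lists, 1.59% of all genes were called lower and 1.07% higher in 3AKO, and 4.98% and 2.86% in 3BKO. On plate 211 the shares were 1.23% and 1.8%, and on plate 210 0.583% and 1.15%. Calls of so few genes are not read as results about the lists.

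The genes whose levels over the 12 libraries were most like those of Vax2, by Pearson's r of log2(CPM + 1) among 10782 detected genes, were led by Vax2os (0.95). Copg1 (0.93), a coat protein subunit of vesicle transport, Wbp1 (0.91), Sec61a1 (0.90), the channel of the endoplasmic reticulum translocon, and Rnf113a2 (0.90) followed. For Vax2os they were Vax2 (0.95), Mob1a (0.94), a Hippo pathway kinase adaptor, Arrdc4 (0.94), Copg1 (0.93) and Rnf113a2 (0.92). Dnmt3a came at place 32 for Vax2 (0.82) and place 384 for Vax2os (0.64). These r describe 12 points that share plates and batches and fall into a low and a high set, and they carry no test. Low values in the Dnmt3a knockout libraries of the later day chose both genes, and these libraries are among the 12 points. The r between Vax2 and Vax2os, and their first places, thus follow in part from that choice.

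Of the genes other than the pair itself, Copg1, Wbp1, Sec61a1 and Mob1a lie on chromosome 6 close to Vax2, at 4.18 Mb after its start, 0.592 Mb before it, 4.79 Mb after it and 0.385 Mb before it. At day 9 their log2 ratios of 3AKO to WT were -1.42, -1.89, -1.55 and -2.17, and on plate 211 against plate 209 -1.12, -1.35, -1.24 and -0.82. In 3BKO against WT they were -0.02, 0.05, -0.35 and 0.01. Arrdc4 (chromosome 7) and Rnf113a2 (chromosome 12) lie elsewhere, with -1.94 and -0.92 in 3AKO against WT. Rnf113a2 lies between 80 and 85 Mb of chromosome 12, where the median of 33 detected genes in this contrast was -0.69.

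Nearest to Vax2, Tex261, 30572 bases beyond its end, was the 1 gene of the 5 on either side with more than 14 reads. Its level was 47.6 CPM in WT and 24.9 CPM in 3AKO at day 9 (log2 ratio -0.91; -1.01 and -0.56 by batch), and 44.8 CPM in 3BKO (-0.09). On plate 211 it stood to plate 209 at -1.31 and on plate 210 at -0.06. On the Vax2os side, Clec4f, Cd207 and the 3 small RNA models had 0 or 1 read, and beyond Vax2, Atp6v1b1 and Gm7443 had 0, Ankrd53 3 and 1700124L16Rik 14.

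A wider stretch of chromosome 6 had low ratios in the same contrasts. The stretch was picked after these values were seen and is described without a test. Between 80 and 90 Mb, leaving out Vax2 and Vax2os, 55 of 56 detected genes (98.2%) were below 0 in 3AKO against WT at day 9. Of the 9052 genes elsewhere, 58.9% were below 0. The median log2 ratio in the stretch was -1.002 (-1.09 and -0.89 by batch), against -0.10 elsewhere. In plate 211 against plate 209, 63 of 66 (95.5%) were below 0, against 49.5% elsewhere. The median there was -0.92 (-1.01 and -1.07), against 0.01 elsewhere. In 3BKO against WT the median was -0.09, and in plate 210 against plate 209 0.04, close to the -0.08 and 0.04 of other genes. Of 167 bins of 5 Mb with at least 20 genes, those of 80 to 85 Mb and 85 to 90 Mb on chromosome 6 had the lowest medians in 3AKO at day 9 (-1.09 and -0.97), and they were also the lowest of 192 on plate 211 (-0.78 and -1.08). Other chromosomes had low bins too. Next in 3AKO came 10 to 15 Mb of chromosome 8 (-0.76, 21 of 23 genes below 0) and 80 to 85 Mb of chromosome 12 (-0.69, 26 of 33). Next on plate 211 came bins of chromosome 8, with -0.67 at 110 to 115 Mb and -0.63 at 10 to 15 Mb. Vax2 and Vax2os lay further down than the medians above in both contrasts. Nothing is read from this in 3AKO at day 9, the contrast that chose the pair for its low values. In 3AKO at day 9 the lowest of the 56 was C87436 at -2.19, and on plate 211 the lowest of the 66 was Alms1 at -2.52, both above the members. Low ratios in 3AKO at day 9 did not end at 80 and 90 Mb, and such genes count as elsewhere above. The bin of 70 to 75 Mb of chromosome 6 had a median of -0.63, with 19 of 24 genes below 0. On plate 211 its median was -0.26, with 17 of 27 below 0. After 90 Mb in 3AKO, detected genes ran on from Zxdc, 6.66 Mb from the Vax2 start, to Ppp4r2 at 17.1 Mb. Of these only Gm5313 and Shq1 were above 0, at 0.29 and 0.13. The rest lay between -2.10 (Magi1) and -0.05 (Tmem43), with Tmf1, 13.4 Mb from the Vax2 start, at -1.47. The next detected gene, Trnt1 at 23.1 Mb, was at -0.06. Whether the DNA of this stretch was the same in all lines was not tested.

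**Figure D5:**
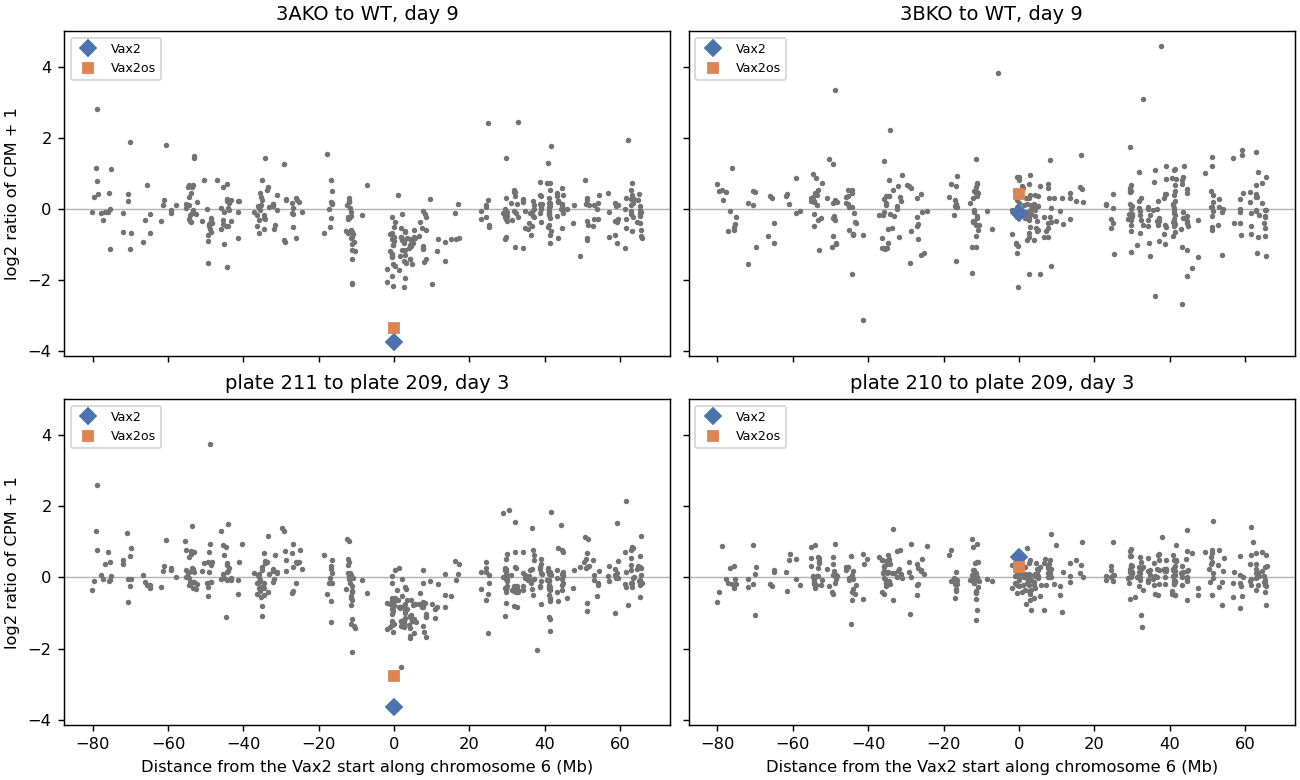
Log2 ratio of CPM + 1 of detected genes of chromosome 6 (grey points) against distance from the Vax2 start in Mb, with Vax2 and Vax2os marked, in 4 contrasts. In 3AKO against WT at day 9 and in plate 211 against plate 209 the points just beside and after Vax2 lie near -1 and the pair below them, while in the other contrasts these points lie about 0.

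Within WT day 9 cells, the genes that varied most like Vax2 over 89 cells, among 8074 genes, were Chchd10 (Spearman's rho 0.58), a mitochondrial protein, Hsd17b14 (0.55), a steroid dehydrogenase, Tdh (0.54), the threonine dehydrogenase of mouse embryonic stem cells, Lrrc34 (0.53) and Triml1 (0.51), with Vax2os at place 6. For Vax2os they were Tcea3 (0.67), a transcription elongation factor, H2-M6-ps (0.56), Tdh (0.53), Hsd17b14 (0.53) and Ooep (0.51). The sign of each was the same in both batches. Dnmt3a had a rho of -0.08 with Vax2 and -0.13 with Vax2os in these cells, and the early neural factors Sox2 and Otx2 0.09 and -0.13 with Vax2. Tdh had 577 CPM in WT day 9 cells, 500.5 in 3AKO cells and 389 in 3BKO cells, and Chchd10 1403, 1461 and 1235. Triml1 had 20.6 CPM in 3AKO, beside 38.5 in WT and 84.5 in 3BKO, and H2-M6-ps had 15.5 CPM, beside 27.7 and 38.2. Tcea3 was the higher in 3AKO, with 44.01 CPM beside 21.1 in WT.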

How the data were processed

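Modified Smart-seq2 libraries of single cells were sequenced as single-end reads of 75 bases. The authors deposited 1 table of raw read counts per gene name. Per the labels and the methods of the study, quality was checked with FastQC 0.11.2, reads were trimmed with Trim Galore 0.5.0, aligned to mm10 (GRCm38) with STAR 2.7.1a and counted over exons with featureCounts 1.6.1, leaving out reads that map to several places, with no strand setting named. A further 26 columns carry no sample and were not used.

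Groups, days, batches and plates came from the labels. Counts were summed over kept cells and given as CPM, and ratios as log2(CPM + 1), which understates changes of low values. Shares of cells were computed on the deposited counts and after random thinning. Intervals are exact Poisson or Clopper-Pearson at 95%. With 1 sample per group no test was run. Genes named as most like a member, neighbours and gene lists followed 1 rule, which took the 5 genes of highest correlation for each member, the 5 nearest on each side, and lists for eye and forebrain, retinoic acid and Hedgehog, DNA methylation and 3 cell classes, leaving mitochondrial and unnamed models out of the correlations. The members and lists were chosen with earlier results of these data known. Positions are from GENCODE vM21, in which 96.8% of gene names were found once. No doublet caller was run, as cells were sorted 1 to a well. The scripts were tested on simulated data. Alternatives changed the cell filter (none, or 100000 reads, 4000 genes and 25% mitochondrial), batch, scaling (TMM of edgeR 4.0.16, median ratios of DESeq2 1.42.0), thinning, pseudocount (0.1 or 10 CPM) and detection limit.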

Additional observations from a re-analysis of the deposited data

Results flagged for a closer look

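At day 9 both batches of 3AKO lay below WT and both batches of 3BKO did not. The ratios were -3.48 and -4.39 against 0.03 and 0.26 for Vax2, and -2.99 and -4.86 against 0.43 and 0.94 for Vax2os. For Vax2 the 3BKO level was near that of WT, with a pooled ratio of -0.10. The pooled ratios of 3BKO and 3AKO differed by 3.62 log2 units for Vax2 and 3.75 for Vax2os. This difference was not tested, and both ratios use the same WT cells. The low 3AKO values at day 9 chose the genes, so a gap to another group follows in part from that choice.

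At day 3 Vax2 differed between plates, with plate 211 below plate 209 in both batches (-4.25 and -2.63) and plate 210 above it (0.52 and 0.66). The difference was -4.22 log2 units from plate 210 to plate 211, or 4.22 the other way. It was not tested either. For Vax2os the batches of plate 210 lay on both sides of 0.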

How the results depend on the processing

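The contrast of 3AKO and WT at day 9 chose both genes. The alternatives reuse its counts, so a kept sign is no independent support. The Vax2 ratio of 3AKO to WT at day 9 stayed negative under 12 of 12 alternatives (-4.39 to -2.01), and so did that of Vax2os (-4.86 to -2.12). For Vax2 it left the counting interval of the reported value in batch 2 alone (-4.39), with a pseudocount of 0.1 CPM (-4.21) or 10 CPM (-2.01) and without the cell of most reads (-4.14), and for Vax2os in batch 1 alone (-2.99), batch 2 alone (-4.86), with thinned cells (-2.81) and with a pseudocount of 10 CPM (-2.12). In 3BKO against WT the Vax2 ratio lay between -0.28 (thinned cells) and 0.26 (batch 2 alone), so its sign is not set. That of Vax2os stayed positive (0.34 to 0.94, the highest in batch 2 alone). The share of Vax2-positive WT day 9 cells with Vax2os was 61.9% to 80% over 6 alternatives. The number of genes called lower in 3AKO at day 9 was 146 as reported, 454 with no detection limit and 67 with a limit of 40%, where fewer genes qualify and Vax2 no longer does. At day 3 by plate, added after seeing the data, the plate 211 ratios stayed negative in each batch. The pseudocount sets how far a level near 0 can fall. In batch 2 of 3AKO day 9 both genes had 0 reads, so only an upper limit is known. It was taken as 3 reads (0.303 CPM), while the exact Poisson interval reaches 0.372 CPM. No paired analysis was possible because the labels tell no replicates apart and no test was run.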
